A study of Mus musculus with 2 samples.

Results

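Galactosylceramide and its sulfated form, sulfatide, are galactolipids that set myelin apart from other membranes, and the 8 genes described here encode enzymes and a carrier protein on the route that makes, moves and degrades them. The genes were chosen by name, for their place on this route (Sptlc2, Degs1, Cers2, Fa2h, Ugt8a, Gal3st1, Gltp and Galc), and are 8 of the 31053 genes in the files. Earlier results of these data were known when the genes were chosen. Their UMIs (unique molecular identifiers, each standing for 1 captured RNA molecule) were followed over OPCs (oligodendrocyte progenitor cells), NFOs (newly formed oligodendrocytes) and oligodendrocytes of the optic nerve, from scRNA-seq of 1 uninjured and 1 injured library. Both were made from wildtype mice of the strain 129S1/SvlmJ, males and females pooled, with 5 optic nerves each, and the injured tissue was the injury site itself, 2 weeks on from ONC (optic nerve crush). By the study's design the mice were 10 weeks old and crushed at 8 weeks. The labels give an age of 56 days and the words on crush to both samples alike, and the title alone marks the uninjured one. The authors typed the cells by Pdgfra for OPCs, Fyn for NFOs and Mag with Mbp for oligodendrocytes, and cells outside this lineage were not analysed here. Their clustering also set apart small spidery oligodendrocytes, nearly absent in the uninjured nerve, and subtypes of mature oligodendrocytes. The types used here do not separate these states. Ratios between conditions within a type may thus compare different mixes of them, which was not tested. With 1 library of pooled nerves per condition, no difference has a replicate check, no p-value was computed, and every interval given is a 95% interval for counting error only.

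Sphingolipid synthesis starts when serine palmitoyltransferase joins serine and a fatty acyl group, and it continues through dihydroceramide to ceramide. In oligodendrocytes, ceramide with a very long and often hydroxylated acyl chain receives a galactose and becomes galactosylceramide, part of which receives a sulfate and becomes sulfatide. Mice that lack the galactosyltransferase make unstable myelin without these lipids, and loss of the lysosomal galactosylceramidase underlies Krabbe disease, in which myelin-forming cells die.

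There were 58 OPC, 44 NFO and 857 oligodendrocyte barcodes of the uninjured nerve and 17, 100 and 293 of the injured nerve, and the libraries shared 0 barcodes. The summed UMIs of these 6 classes ranged from 94130 in uninjured NFOs to 4149375 in uninjured oligodendrocytes. Injured oligodendrocyte barcodes were shallower, with a median of 1268 UMIs against 3060. Malat1, a nuclear RNA that is abundant in intact cells, was under 0.5% of all UMIs in 133 of 293 injured oligodendrocyte barcodes and in 48 of 857 uninjured ones, and 53 of the injured ones lay near this limit, between 0.25% and 1%. Among NFOs, 77 of 100 injured and 28 of 44 uninjured barcodes were under it. Of the injured NFO barcodes, 13 held over 5000 UMIs each, with a median of 19631, and 64.0% of the UMIs of the type. Of the uninjured ones 5 did, with a median of 5408 and 42.15%. Levels of injured NFOs thus weigh these few deep barcodes most. The 9 listed genes of macrophages and microglia summed to 231 CPM (counts per 1000000 summed UMIs of a class) in injured oligodendrocytes and 529 CPM in injured NFOs, with all 9 detected. The uninjured classes held 24.1 and 21.2 CPM, with 9 and 2 of the 9 detected. A UMI of Lyz2, C1qa, C1qb, C1qc or Ctss was found in 210 of 293 injured oligodendrocyte barcodes and in 35 of 857 uninjured ones.

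Schwann cells of peripheral nerve make the same lipids. Of their listed genes, Prx and Pmp2 were at 0 in all 6 classes, and Ncmap had 24 UMIs in uninjured and 4 in injured oligodendrocytes. Fyn and Mag were used for the typing, so their high levels in NFOs and oligodendrocytes follow from it, and the other listed markers were read from the same cells and are a description. Gpr17 was at 1200 CPM in uninjured and 776 CPM in injured NFOs, above the 537 and 281 CPM of OPCs and the 3.13 and 0.434 CPM of oligodendrocytes, and Bcas1 and Tcf7l2 were likewise highest in NFOs of both libraries. Enpp6 and Itpr2 marked the uninjured NFOs less well. Enpp6 was at 404 CPM in them and 524 CPM in uninjured oligodendrocytes, and Itpr2 at 266 CPM in them and 414 CPM in uninjured OPCs. Cspg4, Ptprz1, C1ql1 and Cacng4 were highest in OPCs, and Mog, Cldn11, Ermn, Aspa and Mobp in oligodendrocytes, in both libraries, although uninjured OPCs held 829 CPM of Mobp and uninjured NFOs 776 CPM. Mag, a myelin glycoprotein, was found in 66.6% of the shallower injured oligodendrocyte barcodes and in 95.3% of the uninjured ones.

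All 8 genes are protein-coding in the GENCODE annotation of GRCm38, the build of the authors' alignment. The early enzymes are Sptlc2 (ENSMUSG00000021036) at chr12:87305058-87388355 and Degs1 (ENSMUSG00000038633) at chr1:182275772-182282804, both on the minus strand, and Cers2 (ENSMUSG00000015714) at chr3:95314791-95323599 on the plus strand, where Setdb1 overlaps it from the other strand. The enzymes that shape the galactolipid are Fa2h (ENSMUSG00000033579) at chr8:111345135-111393824 and Ugt8a (ENSMUSG00000032854) at chr3:125865271-125938619, both on the minus strand, and Gal3st1 (ENSMUSG00000049721) at chr11:3983636-3999326 on the plus strand. The carrier is Gltp (ENSMUSG00000011884) at chr5:114669398-114690984 and the degrading enzyme Galc (ENSMUSG00000021003) at chr12:98202294-98259459, both on the minus strand.

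RefSeq promoters on GRCm38.p6 matched 7 of the 8 symbols, all but Fa2h, with 10 windows of 300 bases. The 250 bases before the start site are shown for Ugt8a and Cers2, whose levels were lower in injured than in uninjured oligodendrocytes, and for Gltp, whose level was higher. They lie at chr3:125938653-125938902 (minus strand), chr3:95314940-95315189 (plus strand) and chr5:114690936-114691185 (minus strand), are written 5′ to 3′, and have CG pairs in capitals.
Ugt8a: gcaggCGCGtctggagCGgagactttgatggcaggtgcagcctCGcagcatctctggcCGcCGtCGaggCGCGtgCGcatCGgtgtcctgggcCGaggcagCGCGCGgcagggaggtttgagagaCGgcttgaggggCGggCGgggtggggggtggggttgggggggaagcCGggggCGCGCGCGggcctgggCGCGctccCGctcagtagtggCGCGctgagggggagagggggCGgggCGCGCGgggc
Cers2: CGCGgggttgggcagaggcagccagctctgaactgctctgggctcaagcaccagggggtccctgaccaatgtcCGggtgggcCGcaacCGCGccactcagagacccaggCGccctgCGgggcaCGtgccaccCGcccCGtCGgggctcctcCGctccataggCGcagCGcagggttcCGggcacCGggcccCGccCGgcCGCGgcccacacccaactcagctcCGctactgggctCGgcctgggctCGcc
Gltp: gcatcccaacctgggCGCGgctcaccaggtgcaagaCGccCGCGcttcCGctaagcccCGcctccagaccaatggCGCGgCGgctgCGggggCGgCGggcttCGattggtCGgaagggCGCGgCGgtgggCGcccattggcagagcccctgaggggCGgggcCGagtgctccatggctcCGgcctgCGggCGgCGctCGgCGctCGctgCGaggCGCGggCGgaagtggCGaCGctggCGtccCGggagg
These sequences hold 32, 24 and 36 CG pairs, where the median of 32851 promoters is 6 and their upper quartile 16. Their GC content is 76.8%, 74.8% and 76.8%, against a median of 52.4%. Another window of Cers2 holds 5 pairs at 54% GC, and that of Galc, also higher in injured oligodendrocytes, 9 pairs at 54% GC. A search on both strands for the TATA box motif (its letters being TATAAA), for the SOX-type motifs AACAAT and also ACAAAG (which overlap in 4 letters), for the Myrf-type motifs CTGGCAC and also CTGGTAC, and for TCACNCCAC (a sterol regulatory element type) gave 0 matches in the 10 windows. They stand in 13.6%, 10.7%, 18.7%, 5.01%, 2.24% and 1.24% of all promoters of the same length.

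Sptlc2, a catalytic subunit of serine palmitoyltransferase at the entry of the route, was low and even. It stood at 70.0 CPM (36.2 to 122) in uninjured and 34.0 CPM (9.27 to 87.1) in injured OPCs, from 12 and 4 UMIs. In NFOs it was at 53.1 CPM (17.2 to 124) and 48.3 CPM (28.2 to 77.4), and in oligodendrocytes at 64.4 CPM (56.9 to 72.6) and 54.7 CPM (45.6 to 65.2). All 6 intervals overlap, so no stage and neither condition stood apart. The injured level in oligodendrocytes was 0.850 (0.683 to 1.06) times the uninjured one.

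Degs1, the desaturase that turns dihydroceramide into ceramide, was higher in oligodendrocytes than in the earlier stages. Its level there was 348 CPM (331 to 367) uninjured and 314 CPM (292 to 338) injured, a ratio of 0.902 (0.824 to 0.987). In NFOs it was 191 CPM (113 to 302) and 173 CPM (133 to 223), and in OPCs 146 CPM (94.4 to 215) and 128 CPM (71.4 to 210.4). The order was the same in both libraries, but NFOs and OPCs overlap in their intervals. Uninjured oligodendrocytes held 1.82 (1.15 to 3.08) times the NFO level.

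Cers2, the ceramide synthase that attaches very long acyl chains, had a steeper gradient. Its uninjured level was 93.4 CPM (53.4 to 152) in OPCs, 149 CPM (81.3 to 249.5) in NFOs and 750 CPM (724 to 777) in oligodendrocytes. The injured level was 59.5 CPM (23.9 to 123), 170.5 CPM (130.1 to 219.5) and 496 CPM (468 to 526). Oligodendrocytes stood above both earlier stages in each library, at 5.04 (3.001 to 9.23) times the NFO level uninjured and 2.91 (2.24 to 3.84) times injured. Within oligodendrocytes the injured level was 0.662 (0.618 to 0.709) times the uninjured one, from 1143 and 3112 UMIs. In NFO barcodes of 1000 to 5000 UMIs this ratio was 0.246 (0.083 to 0.664), from 7 injured and 13 uninjured UMIs. NFO barcodes over 5000 UMIs went the other way. They held 226 CPM (168.5 to 298) injured, from 51 UMIs, and 25.2 CPM (0.638 to 140.4) uninjured, from 1 UMI.

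Fa2h, the hydroxylase that places a hydroxyl group on the acyl chain, had the lowest injured-to-uninjured ratio of the 8 genes in oligodendrocytes. Its level there was 796 CPM (769 to 823) uninjured, from 3301 UMIs, and 234 CPM (215 to 255) injured, from 540 UMIs. The ratio was 0.295 (0.269 to 0.323), at percentile 0.954 of the 8591 genes that reached 50 UMIs over both classes. In NFOs Fa2h was at 149 CPM (81.3 to 249.5) and 119 CPM (86.0 to 161), and in OPCs at 64.2 CPM (32.0 to 115) and 68.0 CPM (29.4 to 134), with overlapping intervals between conditions. Of its 42 UMIs in injured NFOs, 36 came from the 13 barcodes over 5000 UMIs. Oligodendrocytes stood 5.35 (3.18 to 9.80) times above NFOs when uninjured and 1.96 (1.43 to 2.76) times when injured.

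Ugt8a encodes the ceramide galactosyltransferase, which commits ceramide to galactosylceramide. Its uninjured level was 198 CPM (137 to 277) in OPCs, 319 CPM (215 to 455) in NFOs and 1455 CPM (1419 to 1492) in oligodendrocytes. The injured level was 179 CPM (110.5 to 273), 529 CPM (455 to 610.3) and 742 CPM (708 to 778). The stages kept their order, but the last step was 4.57 (3.20 to 6.77) times in the uninjured and 1.40 (1.21 to 1.64) times in the injured library. The injured-to-uninjured ratio was 0.510 (0.483 to 0.538) in oligodendrocytes and 1.66 (1.12 to 2.53) in NFOs, in opposite directions. The NFO ratio rests on 186 injured and 30 uninjured UMIs, 10 of the latter from a single barcode. Of the injured UMIs, 129 came from the 13 barcodes over 5000 UMIs. From 1000 to 5000 UMIs the NFO ratio was 1.23 (0.727 to 2.18), from 54 and 20 UMIs. It was 0.621 (0.280 to 1.28), on the other side of 1, in NFO barcodes without a UMI of the 5 macrophage genes, from 11 and 29 UMIs.

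Gal3st1, the sulfotransferase that turns galactosylceramide into sulfatide, had overlapping intervals in NFOs and oligodendrocytes. Its level in oligodendrocytes was 407 CPM (388 to 427) uninjured and 372 CPM (347 to 398) injured, a ratio of 0.914 (0.841 to 0.993). In NFOs it was already 308 CPM (206 to 442) and 381 CPM (319 to 451), and in OPCs 152 CPM (99.1 to 222) and 229.6 CPM (151 to 334). Oligodendrocytes and NFOs overlap in both libraries, with ratios of 1.32 (0.916 to 1.98) uninjured and 0.976 (0.813 to 1.18) injured. NFOs held 2.03 (1.15 to 3.59) times the OPC level uninjured and 1.66 (1.09 to 2.61) times injured.

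Gltp, a cytosolic protein that carries glycolipids between membranes, was higher in the injured library in both later stages, in NFOs with limits given below. It stood at 372 CPM (259 to 517) in uninjured and 708 CPM (622 to 801) in injured NFOs, a ratio of 1.90 (1.33 to 2.80). In oligodendrocytes it stood at 627 CPM (603 to 651) and 903 CPM (865 to 943), a ratio of 1.44 (1.36 to 1.53). OPCs held 146 CPM (94.4 to 215) and 204 CPM (131 to 304), with overlapping intervals. In uninjured NFOs 14 of 35 UMIs came from 1 barcode, and without the barcode that held most of them in each class the NFO ratio was 2.55. In NFO barcodes with at least 0.5% Malat1 the levels, 470.4 CPM (317 to 672) and 599.8 CPM (504 to 709), overlap, with a ratio of 1.27. Injured NFOs also had a lower median share of mitochondrial UMIs, 3.10% against 9.46%. They held more of Gfap, an astrocyte filament, at 259 against 21.2 CPM, while the 4 astrocyte genes summed to 313 and 223 CPM, with all detected in injured and all but Gja1 in uninjured NFOs. The part of these differences in the NFO ratio was not tested.

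Galc, the lysosomal enzyme that removes the galactose again, had the fewest UMIs of the 8. In oligodendrocytes it stood at 22.6 CPM (18.3 to 27.7) uninjured, from 94 UMIs, and 51.7 CPM (42.8 to 61.8) injured, from 119 UMIs, a ratio of 2.28 (1.73 to 3.02). In OPCs it stood at 29.2 CPM (9.48 to 68.1) and 42.5 CPM (13.8 to 99.2), and in NFOs at 42.5 CPM (11.6 to 109) and 11.4 CPM (3.10 to 29.1), from 4 or 5 UMIs in each class. Only the oligodendrocyte intervals are apart between conditions. Lysosomal enzymes are also abundant in macrophages, whose listed genes were higher in sum in the injured barcodes. Of these genes Csf1r went the other way, at 6.025 CPM in uninjured and 4.34 CPM in injured oligodendrocytes. In oligodendrocyte barcodes without a UMI of the 5 macrophage genes the ratio of Galc was 2.03 (1.20 to 3.30), from 21 and 89 UMIs. Of the injured Galc UMIs, 108 came from barcodes over 5000 UMIs and 113 from barcodes with at least 0.5% Malat1, so the higher level rests on these barcodes. The ratio was 1.62 (0.646 to 3.62) from 1000 to 5000 UMIs and 0.901 (0.132 to 5.32) under 1000, and 1.09 (0.234 to 6.76) under 0.5% Malat1, from 8, 3 and 6 injured UMIs, and these intervals include 1.

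**Figure D1:**
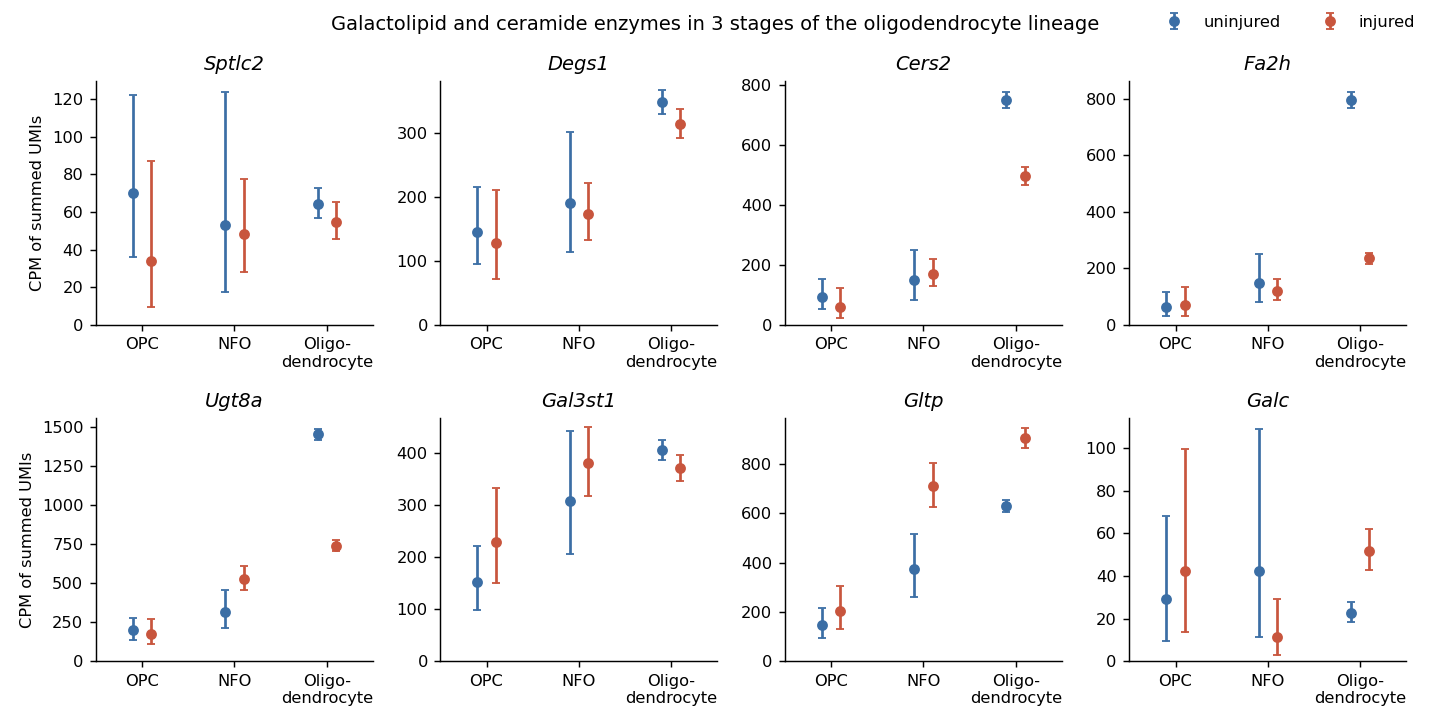
Level of each gene in CPM of summed UMIs (y axes, linear, from 0) over the 3 types (x axes) in the uninjured (blue) and the injured (red) library, with exact Poisson 95% intervals as bars. Cers2, Fa2h and Ugt8a have their highest point in uninjured oligodendrocytes and a lower one in injured oligodendrocytes, whereas Gltp and Galc are higher in injured than uninjured oligodendrocytes.

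The steps between stages were counted over members with at least 50 summed UMIs, and a step was called at 2-fold or more. From NFOs to oligodendrocytes of the uninjured nerve, Cers2, Fa2h and Ugt8a, or 3 of 8 members, were called higher and 0 lower, where 16.0% of 7651 genes were called higher and 20.4% lower. In the injured nerve Cers2 and Galc, or 2 of 8, were called higher and 0 lower, where 19.4% and 13.5% of 6563 genes were, and the Galc call rests on 4 UMIs in NFOs. The median log2 ratio of the 8 members was 0.81 uninjured, against -0.20 over all genes tested, and 0.67 injured, against 0.00.

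From OPCs to NFOs 3 members had enough UMIs in the uninjured nerve, of which Gal3st1 and Gltp were called higher and 0 lower, beside 13.4% and 12.6% of 867 genes. The ratio of Gltp was 2.55 (1.48 to 4.44). In the injured nerve 6 had enough, and Cers2 at 2.86 (1.31 to 7.43), Ugt8a at 2.96 (1.88 to 4.90) and Gltp at 3.47 (2.28 to 5.52) were called higher and 0 lower, beside 14.1% and 7.71% of 1855 genes. Gltp was thus called in both libraries. The uninjured call rests on 35 NFO and 25 OPC UMIs, with 14 of the 35 from 1 barcode. It was lost without the barcode of most UMIs in each class.

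OPC barcodes held a larger part of the oligodendrocyte level for these enzymes than for several myelin markers. In the uninjured nerve this part was 8.07% (4.02 to 14.5) for Fa2h, 12.4% (7.11 to 20.2) for Cers2 and 13.6% (9.44 to 19.1) for Ugt8a. For Mag, Mog, Cldn11, Ermn and Aspa it lay between 0.892% and 2.70%, and for Mobp it was 28.4%. The 3 enzymes thus lay above these markers other than Mobp, although the upper bounds of Ermn and Aspa reach into the interval of Fa2h. Droplets also hold free RNA of other cells, whose part here was not tested.

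Between conditions, Galc was called higher in oligodendrocytes and Fa2h lower, or 1 and 1 of 8 members, where 5.98% and 4.06% of 8591 genes were. Ugt8a, at percentile 4.50 of all genes tested, lay just outside a call. The median log2 ratio of the members was -0.19 against 0.05 over all genes. In NFOs 6 members had enough UMIs and 0 were called in either direction, where 13.3% of 1695 genes were called higher and 4.01% lower, with medians of 0.25 and 0.20. Taken relative to the median gene, the NFO ratio of Cers2 moved from 1.15 to 0.997, and those of Degs1, Fa2h, Ugt8a, Gal3st1 and Gltp stayed on their side of 1.

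**Figure D2:**
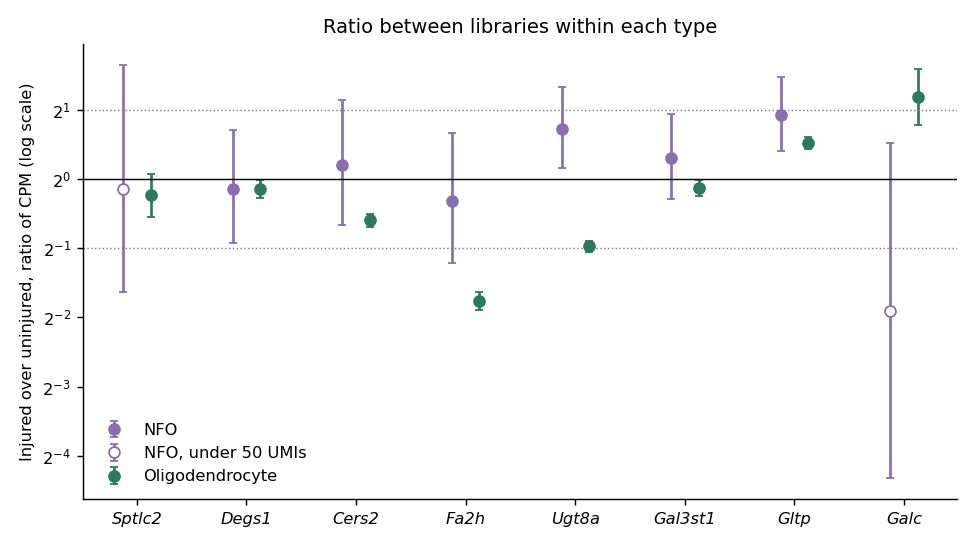
Ratio of injured to uninjured CPM (y axis, log scale) for each gene in NFOs (purple) and oligodendrocytes (green), with exact conditional 95% intervals as bars, dotted lines at 2-fold, and open points for members under 50 summed UMIs. In oligodendrocytes Fa2h lies at 0.295 and Galc at 2.28, and Ugt8a lies at 0.510 in oligodendrocytes and 1.66 in NFOs.

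The oligodendrocyte ratios were computed again within ranges of UMIs per barcode, since depth differed between the libraries. Over 5000 UMIs there were 282 uninjured and 90 injured barcodes, with 71.1% and 88.5% of the UMIs of the type and medians of 9738 and 21719 UMIs. In these barcodes Fa2h had a ratio of 0.306 (0.277 to 0.337), Ugt8a of 0.550 (0.519 to 0.583) and Cers2 of 0.724 (0.673 to 0.779), while Gltp was at 1.27 (1.19 to 1.35) and Galc at 2.65 (1.91 to 3.70). Degs1 at 0.930 (0.844 to 1.02) and Sptlc2 at 0.998 (0.785 to 1.27) had intervals that include 1, and that of Gal3st1, at 0.914 (0.836 to 0.998), ended just below it.

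Barcodes of 1000 to 5000 UMIs, 418 uninjured and 70 injured with close medians of 2477 and 2310 UMIs, differed more. Of the 7 members with enough UMIs 6 were called lower and 0 higher, where 14.8% of 4165 genes were called lower and 5.45% higher. Cers2 was at 0.316 (0.228 to 0.428), Fa2h at 0.267 (0.187 to 0.371) and Ugt8a at 0.372 (0.302 to 0.455). The genes that were close to 1 among deep barcodes were lower here as well, with Degs1 at 0.444 (0.283 to 0.666), Gal3st1 at 0.441 (0.285 to 0.657) and Sptlc2 at 0.311 (0.0828 to 0.828), the last from 4 injured UMIs. Gltp was the exception at 1.95 (1.58 to 2.39). The median log2 ratio of these members was -1.43 against -0.10 over all genes tested. Under 1000 UMIs, with 157 and 133 barcodes, Fa2h was at 0.112 (0.0467 to 0.230), Ugt8a at 0.189 (0.115 to 0.297), Cers2 at 0.207 (0.0944 to 0.409) and Gltp at 2.18 (1.40 to 3.45).

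A narrower range, from over 5000 to 15000 UMIs, chosen after seeing the data, held 254 uninjured and 23 injured barcodes. Fa2h was at 0.368 (0.284 to 0.471) in this range, Ugt8a at 0.530 (0.451 to 0.620), Cers2 at 0.571 (0.461 to 0.700) and Gltp at 1.75 (1.53 to 1.99). Degs1, at 0.619 (0.461 to 0.815), was below its ratio in the whole type, and Gal3st1 was at 0.934 (0.742 to 1.16). Galc, at 1.64 (0.671 to 3.49) from 8 injured UMIs, was no longer past 2-fold.

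**Figure D3:**
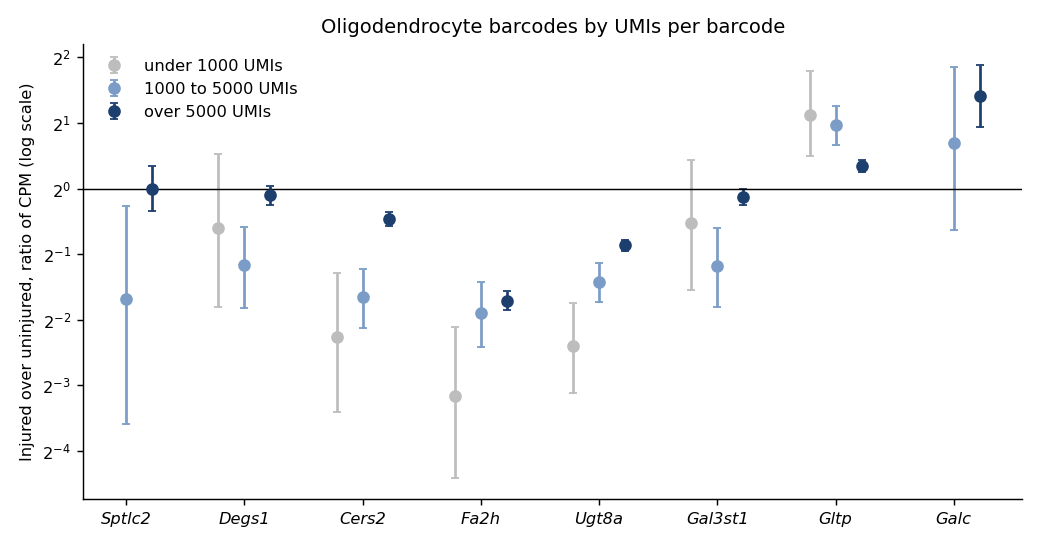
Ratio of injured to uninjured CPM in oligodendrocyte barcodes (y axis, log scale) for each gene, split by UMIs per barcode (grey under 1000, light blue 1000 to 5000, dark blue over 5000), with exact conditional 95% intervals as bars and no point where a library held 3 or fewer UMIs. Cers2, Fa2h and Ugt8a lie below 1 and Gltp lies above 1 in all 3 ranges.

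Malat1 gave another split. Oligodendrocyte barcodes with at least 0.5% Malat1 had medians of 3250 UMIs uninjured and 9804 UMIs injured, so depth was not matched. In the 809 uninjured and 160 injured oligodendrocyte barcodes with at least 0.5% Malat1, Galc at 2.33 (1.75 to 3.10) was called higher and Fa2h at 0.305 (0.278 to 0.334) lower, again 1 and 1 of 8 members, where 6.19% and 3.84% of 8551 genes were. Ugt8a was at 0.522 (0.494 to 0.551), Cers2 at 0.684 (0.638 to 0.732) and Gltp at 1.44 (1.35 to 1.53). In the 48 uninjured and 133 injured barcodes under 0.5%, Fa2h was at 0.175 (0.0683 to 0.400), Ugt8a at 0.450 (0.298 to 0.676), Cers2 at 0.331 (0.188 to 0.570) and Gal3st1 at 0.418 (0.241 to 0.718). Degs1 lay on the other side of 1 there, at 1.28 (0.561 to 3.17) from 21 injured and 9 uninjured UMIs. Fa2h, Ugt8a and Cers2 were thus lower in the injured library on both sides of the limit, while Gltp at 1.12 (0.831 to 1.52) had an interval that includes 1 below it. Without the barcodes that held a UMI of the 5 macrophage genes, 822 uninjured and 83 injured barcodes were left. Their medians were 3016 and 987 UMIs, so depth was not matched here either. Fa2h was at 0.312 (0.256 to 0.377), Ugt8a at 0.555 (0.498 to 0.617), Cers2 at 0.690 (0.602 to 0.788) and Gltp at 1.62 (1.47 to 1.80) in them.

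Single oligodendrocyte barcodes over 5000 UMIs showed how the levels were spread. From the lower to the upper quartile, Fa2h ran over 462 to 1045 CPM in uninjured and 159 to 343 CPM in injured barcodes, around medians of 731 and 239 CPM. Ugt8a ran over 972 to 1757 and 446 to 969 CPM, around 1309 and 688 CPM. The quartile ranges of these genes do not meet, though those of Ugt8a nearly touch. They overlap for Cers2 (497 to 940.5 and 347 to 678 CPM), Gltp (405 to 931 and 672 to 1094 CPM), Gal3st1 (213 to 586 and 267 to 506 CPM) and Degs1 (201 to 522 and 232 to 406 CPM). Fa2h was at 0 in 3 of 282 uninjured and 5 of 90 injured barcodes, so its lower level was spread over the deep barcodes. Galc was at 0 in 230 and 32 of them, where the injured ones were also deeper. Between 1000 and 5000 UMIs Fa2h was at 0 in 88 of 418 uninjured and 51 of 70 injured barcodes, and Ugt8a in 43 and 31.

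Every barcode was also thinned to 500 UMIs, which left out 19 uninjured and 0 injured oligodendrocyte barcodes. Ugt8a was then found in 49.6% (46.2 to 53.1) of uninjured and 17.4% (13.2 to 22.2) of injured oligodendrocyte barcodes, against 86.1% and 50.2% before thinning and 12.5% and 5.88% of thinned OPC barcodes. Fa2h was found in 28.5% (25.5 to 31.7) and 7.85% (5.04 to 11.6), against 77.8% and 38.2% before thinning. In thinned OPC barcodes its share was 3.57% uninjured and 0 of 17 injured, which allows a share of up to 19.5%. Gltp went the other way, with 18.7% (16.2 to 21.5) and 29.7% (24.5 to 35.3), against 62.1% and 62.1% before thinning and 3.57% and 17.6% of thinned OPC barcodes. The directions of these 3 genes were thus those of the summed UMIs.

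**Figure D4:**
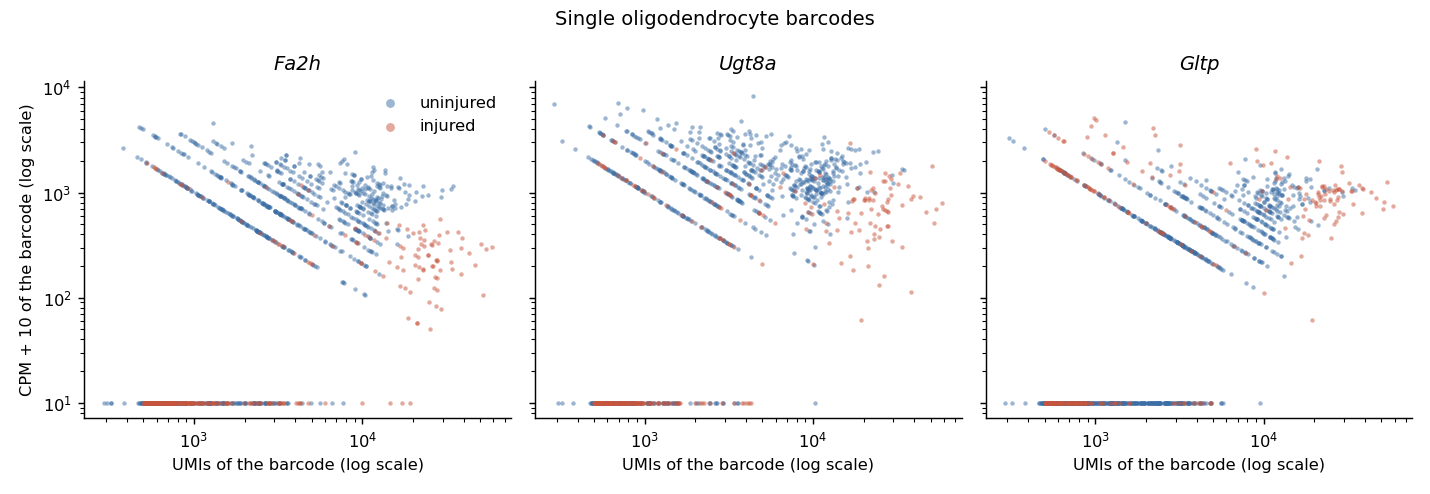
CPM + 10 of Fa2h, Ugt8a and Gltp (y axes, log scale) against the UMIs of the barcode (x axes, log scale) for the 857 uninjured (blue) and 293 injured (red) oligodendrocyte barcodes, 1 point each, with barcodes without a UMI of the gene on the bottom line and diagonal rows for small whole numbers of UMIs. The deepest barcodes are mostly red, and over 5000 UMIs the red points center lower than the blue ones for Fa2h and Ugt8a and higher for Gltp.

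The UMIs of the 8 genes were also set against their own sum. This sum was 899 CPM (762 to 1053) in uninjured and 944 CPM (776 to 1137) in injured OPCs, 1583 CPM (1339 to 1858) and 2140 CPM (1990 to 2299) in NFOs, and 4470 CPM (4406 to 4535) and 3169 CPM (3097 to 3243) in oligodendrocytes. In uninjured oligodendrocytes Fa2h made up 17.8% (17.2 to 18.4) of it and in injured ones 7.40% (6.81 to 8.02), and Ugt8a 32.6% (31.9 to 33.2) and 23.4% (22.4 to 24.4). The share of Gltp was 14.0% (13.5 to 14.5) and 28.5% (27.5 to 29.6), and that of Galc 0.507% (0.410 to 0.620) and 1.63% (1.35 to 1.95). Cers2 had overlapping intervals, at 16.8% (16.2 to 17.3) and 15.7% (14.8 to 16.5). In NFOs the share of Gltp was 23.5% (16.9 to 31.1) uninjured and 33.1% (29.7 to 36.6) injured and that of Fa2h 9.40% (5.23 to 15.3) and 5.58% (4.05 to 7.46). By these shares, in both genes, injured oligodendrocytes lay closer to NFOs of either library than uninjured ones did. By level this did not hold for Gltp, at 627 and 903 CPM in oligodendrocytes and 372 and 708 CPM in NFOs, uninjured first. Nor did it hold for the share of Galc against injured NFOs, which was 0.531% in them. The share of Degs1 was another exception, at 8.10% in injured NFOs and 7.80% and 9.92% in uninjured and injured oligodendrocytes. These shares have a fixed sum, so a lower share of some genes raises those of the others.

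**Figure D5:**
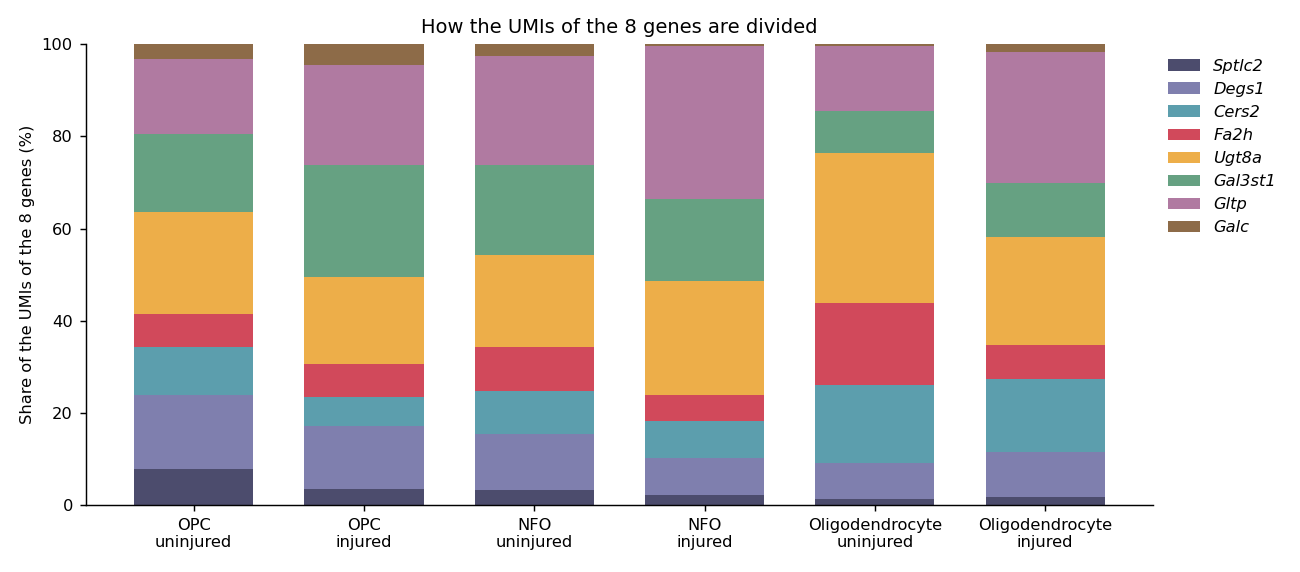
Share of each gene in the summed UMIs of the 8 genes (y axis, percent, from 0 to 100) in the 6 classes (x axis), as stacked bars. Between uninjured and injured oligodendrocytes the band of Fa2h (red) goes from 17.8% to 7.40% and that of Gltp (mauve) from 14.0% to 28.5%.

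Other genes were read from 8 lists with 73 genes, all in the files, of which 7 lists cover sphingolipid metabolism and 1 covers lipid carriers and membrane proteins of myelin such as Mal, Opalin and Pllp. Between injured and uninjured oligodendrocytes 52 of them had enough UMIs, 4 were called higher and 1 lower, beside the 5.98% and 4.06% of all genes. In the list for acyl chains 8 of 8 had enough and 0 were called, with a median log2 ratio of -0.19. Elovl1, an elongase for very long chains, was at 235 and 132 CPM (ratio 0.562, 0.492 to 0.640) and Elovl7, another elongase, at 462 and 326 CPM (ratio 0.706, 0.648 to 0.768), the uninjured level being given first here and below. In the list for ceramide synthesis 8 of 14 had enough and 0 were called, with a median of -0.16, and in that for galactose and sulfate donors 7 of 10 and 0, with a median of -0.08.

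Of 14 genes for breakdown 10 had enough UMIs, with Hexa among those called higher, Asah2 called lower and a median of 0.35. Hexa, a subunit of the hexosaminidases that degrade gangliosides, was at 61.7 and 142 CPM (ratio 2.30, 1.95 to 2.72). In barcodes without a UMI of the 5 macrophage genes the ratio of Hexa was 2.06 (1.51 to 2.77), and in the range of over 5000 to 15000 UMIs it was 1.48 (0.932 to 2.26), with an interval that includes 1. Asah2, a ceramidase, was at 10.6 and 3.91 CPM (ratio 0.369, 0.158 to 0.765), from 44 and 9 UMIs. This call was lost without macrophage UMIs, at 0.600 (0.119 to 1.88), and the ratio was 1.10 (0.214 to 3.56) from over 5000 to 15000 UMIs, each with 3 injured UMIs. Psap, the precursor of the activators that Galc and other lysosomal enzymes need, was at 437 and 665 CPM (ratio 1.52, 1.42 to 1.63) and not called. Arsa, the sulfatase that acts on sulfatide before Galc, was at 21.0 and 18.7 CPM (ratio 0.891, 0.603 to 1.298).

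In the list for sphingomyelin 6 of 7 genes had enough UMIs, and Sgms2, a sphingomyelin synthase, was called higher at 5.30 and 14.3 CPM (ratio 2.70, 1.53 to 4.87). In that for sphingosine 1-phosphate 4 of 6 had enough, and Sgpl1, the lyase that degrades this lipid, was called higher at 15.2 and 37.4 CPM (ratio 2.46, 1.76 to 3.46). Without macrophage UMIs Sgms2 was at 2.05 (0.604 to 5.58) and Sgpl1 at 2.63 (1.46 to 4.52), and from over 5000 to 15000 UMIs they were at 2.05 (0.380 to 7.25) and 1.81 (0.621 to 4.36), so that all but the second of these 4 intervals include 1. Their medians were -0.09 and -0.20, so the called genes did not stand for their lists. The lists for glucosylceramide with gangliosides (4 of 8) and for lipid transfer and binding (5 of 6) had 0 called, with medians of -0.28 and 0.10. In the latter Mal was at 0.676 (0.662 to 0.691), Opalin at 0.630 (0.595 to 0.667) and Pllp at 1.07 (1.01 to 1.13). Among oligodendrocyte barcodes of 1000 to 5000 UMIs 26 of the 73 had enough, 13 were called lower and Hexa alone higher, beside 14.8% of 4165 genes called lower and 5.45% higher. Mal at 0.420 (0.380 to 0.463), Pllp at 0.452 (0.335 to 0.597) and Opalin at 0.388 (0.294 to 0.503) were among those called lower.

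In NFOs 11 of the 73 had enough UMIs, 3 were called higher in the injured library and 0 lower, beside 13.3% and 4.01% of 1695 genes. Elovl7 was at 74.4 and 205 CPM (ratio 2.75, 1.27 to 7.09), Hsd17b12, a reductase of the elongation cycle, at 138 and 281 CPM (ratio 2.04, 1.138 to 3.96), and Opalin, a membrane protein of oligodendrocytes and no enzyme of the route, at 95.6 and 426 CPM (ratio 4.46, 2.29 to 9.94). The uninjured levels rest on 7, 13 and 9 UMIs. Ratios in NFO barcodes with Malat1, without macrophage UMIs or without the top barcode were not computed for these genes. In oligodendrocytes the ratios of these 3 genes lay below 1, at 0.706 (0.648 to 0.768), 0.756 (0.662 to 0.862) and 0.630 (0.595 to 0.667), and the difference between the stages was not tested.

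From NFOs to uninjured oligodendrocytes 46 of the 73 had enough UMIs, with 8 called higher and 6 lower, beside 16.0% and 20.4% of 7651 genes, so both counts were near or under the share of all genes. Here the NFO level is given first. Mal, a proteolipid of myelin that associates with galactolipids, was at 212 and 7313 CPM (ratio 34.4, 22.3 to 56.4), Opalin at 95.6 and 1112 CPM (ratio 11.6, 6.12 to 25.4), Elovl7 at 74.4 and 462 CPM (ratio 6.22, 3.01 to 15.5) and Elovl1 at 74.4 and 235 CPM (ratio 3.16, 1.53 to 7.88). Lysosomal genes were among the lower ones, with Gm2a, the activator of a hexosaminidase, at 170 and 46.3 CPM (ratio 0.272, 0.163 to 0.486). In the injured nerve 40 had enough, with 5 higher and 3 lower, both a smaller share than the 19.4% and 13.5% of 6563 genes. Mal was at 62.5 and 4944 CPM (ratio 79.1, 52.2 to 126), Elovl1 at 51.2 and 132 CPM (ratio 2.58, 1.61 to 4.41) and Gm2a at 88.1 and 39.1 CPM (ratio 0.444, 0.292 to 0.691), in the same directions. From OPCs to NFOs 8 had enough in the uninjured nerve and 0 were called, beside 13.4% and 12.6% of 867 genes called higher and lower. In the injured nerve 13 had enough, with Elovl7, Opalin and Scarb2 called higher and Gm2a and Sptssa lower, beside 14.1% and 7.71% of 1855 genes. The calls of Elovl7 and Opalin each rest on 1 UMI in OPCs and that of Scarb2 on 5.

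Genes with a similar profile over the 6 classes were sought among 5320 genes with at least 200 summed UMIs, by the Euclidean distance of centred log2(CPM + 10) values. The profile of Ugt8a was nearest to that of Tmeff2 (distance 0.416), a transmembrane protein, followed by Tyro3 (0.646), a receptor tyrosine kinase, and Slc6a6 (0.672), a taurine transporter. That of Fa2h was nearest to Elovl1 (0.718), followed by Enpp2 (0.860), the secreted enzyme autotaxin, and Ugt8a (0.957). That of Gal3st1 was nearest to Acaa1a (0.236), a peroxisomal thiolase, Arhgef28 (0.289) and Eif1 (0.316), a translation initiation factor. Among the members Cers2 and Ugt8a were the closest pair (0.810) and Cers2 and Galc the farthest (3.32). The 6 classes come from 2 libraries and the types were set from the same cells, so these distances are a description.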

How the data were processed

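The 2 libraries were made with the Chromium v2 kit, with 6000 cells loaded each, and aligned to mm10 by the authors with Cell Ranger 1.3 (bcl2fastq 2.17.1.14). Per the study's methods, cells were filtered on mitochondrial share, on genes detected and on a maximum of UMIs against doublets, and subsampled to equal numbers. No doublet caller was run here. The values deposited by the authors, from Seurat 4.0.3, are the natural log of 1 plus 10000 times the UMIs of a gene over those of the barcode. UMIs were recovered from them as whole multiples of 1 step per barcode, within 0.001, in 100% of barcodes. The deposited table of both libraries together was not used.

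UMIs were summed over the barcodes of a type and library and given as CPM with exact Poisson intervals. Ratios of CPM have exact conditional intervals and shares of barcodes exact binomial ones, all at 95%. Genes with at least 50 summed UMIs over both classes were called at a ratio of at least 2 or at most 0.5, and 3 UMIs over a class served as a floor. No model was fitted, since barcodes of 1 library are not replicates. Scripts were tested on simulated data. Python 3.11.15, numpy 2.4.6, scipy 1.17.1, pandas 2.3.3 and matplotlib 3.10.9 were used.

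The members, gene lists and motifs were chosen with earlier results of these data known. The genes named are the members, list genes past 2-fold (at most 3 a list, those with most UMIs), marker genes, and the 3 genes nearest in profile to Ugt8a, Gal3st1 and Fa2h. Psap and Arsa, and Elovl1, Elovl7, Mal, Opalin and Pllp where not past 2-fold, were named after their values were seen. Coordinates count from 1 and came from GENCODE vM21, which held 30506 of the 31053 gene names. A few list genes are not reported here.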

Additional observations from a re-analysis of the deposited data

Results flagged for a closer look

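By summed UMIs, Ugt8a had opposite directions under injury in the later 2 stages. In NFOs its injured-to-uninjured ratio of CPM was 1.66 (1.12 to 2.53), whereas oligodendrocytes had a ratio of 0.510 (0.483 to 0.538), and the difference between the stages was not tested, because each condition has 1 library. The NFO ratio was at percentile 79.1 of the 1695 genes tested. Among NFO barcodes without a UMI of the 5 macrophage genes the ratio was 0.621 (0.280 to 1.28), and after thinning each NFO barcode to 500 UMIs it was 0.700. From 1000 to 5000 UMIs it was 1.23 (0.727 to 2.18). With at least 0.5% Malat1 the NFO levels, 439 CPM (292 to 635) uninjured and 635 CPM (536 to 747) injured, overlap. Under 0.5% the ratio was 5.04 (1.31 to 43.0), from 41 and 2 UMIs.

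Of the 73 other genes in the lists, 11 had enough UMIs in NFOs. Of these, 4 had intervals on opposite sides of 1 in the later 2 stages, again without a test of the difference. The share of all genes with this pattern was not computed. Elovl7 had a ratio of 2.75 (1.27 to 7.09) in NFOs and 0.706 (0.648 to 0.768) in oligodendrocytes. Hsd17b12 had 2.04 (1.138 to 3.96) and 0.756 (0.662 to 0.862), and Opalin 4.46 (2.29 to 9.94) and 0.630 (0.595 to 0.667). In uninjured NFOs Elovl7, Hsd17b12 and Opalin had 7, 13 and 9 UMIs. Pllp, a proteolipid of myelin named for this pattern after its values were seen, went the other way with 0.728 (0.570 to 0.938) and 1.07 (1.01 to 1.13).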

How the results depend on the processing

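In oligodendrocytes the injured-to-uninjured ratios of all members but Galc kept their direction under 10 alternatives, with ranges of 0.197 to 0.368 for Fa2h, 0.276 to 0.555 for Ugt8a, 0.316 to 0.699 for Cers2 and 1.39 to 1.95 for Gltp. Galc reversed to 0.780 when barcodes were thinned to 500 UMIs, with 3 injured and 11 uninjured UMIs left. Of these oligodendrocyte values 46 of 80 stayed within the counting interval. In NFOs Ugt8a kept its direction in 7 of 9, Cers2 in 5 and Gltp in 9.

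The counts of members past 2-fold moved as follows, with causes not tested. For injured oligodendrocytes, thinning gave a median log2 ratio of -1.05 with 0 higher and 3 lower, the mean CPM over barcodes -1.02 with 0 and 4, barcodes of 1000 to 5000 UMIs -1.43 with 0 and 6, and those of over 5000 to 15000 UMIs, a range chosen after seeing the data, -0.75 with 0 higher. A total without mitochondrial genes, scaling by the median ratio, and leaving out the barcode with most UMIs of a gene each gave 2 lower, and a threshold of 1.5-fold gave 3 lower. For injured NFOs, thinning gave a median of 1.10 from 1 member, called higher, the mean CPM 1 higher and 2 lower, no top barcode 2 higher, 1000 to 5000 UMIs 1 higher, a minimum of 1 UMI 1 lower, and 1.5-fold 2 higher.

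From OPCs to NFOs of the uninjured nerve, 1 was higher with stricter limits of 500 genes and 10% mitochondrial UMIs, with the mean CPM and with scaling by the median ratio, and 0 with thinning, no top barcode, 1000 to 5000 UMIs or a minimum of 200 UMIs. In the injured nerve thinning gave 0 higher and reversed Cers2 to 0.680 from 4 and 1 UMIs, a minimum of 1 UMI gave 1 lower, and 1.5-fold gave 5 higher. From NFOs to oligodendrocytes of the uninjured nerve, at least 0.5% Malat1 gave 1 lower, thinning a median of 1.82, no top barcode 5 higher, and 1.5-fold 5 higher and 1 lower. In the injured nerve no top barcode gave 4 higher, 1000 to 5000 UMIs a median of 0.12 with 1 higher, no macrophage UMI a median of 1.63 with 4 higher, a minimum of 200 UMIs 1 higher, and 1.5-fold 4 higher.

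Alternatives that left a class under 10 barcodes were not run. These were the range of over 5000 to 15000 UMIs outside the oligodendrocyte injury comparison and, for OPCs against NFOs of the injured nerve, 1000 to 5000 UMIs and no macrophage UMI. No paired analysis was possible because each condition has 1 library, and for the same reason no replicate could be left out. Depth limits OPCs and NFOs most, where a member rested on as few as 4 UMIs.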
